A study of Mus musculus with 24 samples.

Results

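The cecum of mice carrying floxed Cdx2 and a mutant Apc allele (Cdx2f/f::AhCreERT::ApcD14/+, named Cdx2-/-;Apc+/- in the labels and the compound mutant here) was compared with WT cecum across all genes. The libraries were chosen by their titles, 3 of each kind, which makes 6 of the 24 RNA sequencing libraries of the series. The compound mutants were given tamoxifen and b-naphthoflavone, which switch on CreERT, a Cre recombinase driven by the CYP1A1 (Ah) promoter and active only with tamoxifen. The WT mice are labelled as having had no treatment, and no Cre or floxed allele is listed for them. The mutant Apc allele, the loss of Cdx2, the Cre and the drugs therefore go together, and their parts in a difference between the groups cannot be told apart; cecum with the Apc mutation alone was not analysed here. A pair of further cecum groups was read beside these where a result turned on them: Cdx2f/f::AhCreERT mice with the same drugs and no Apc mutation (Cdx2-/-, 3 libraries in set 1 and 3 in set 2). WT stomach (3 libraries) served as a yardstick for gastric genes. The labels give cecum as the tissue and no age, and nothing says whether the libraries of a group stand for different mice. The p-values then rest only on how far libraries of a group spread, estimated over all 24 libraries in 8 groups and not from the 6 alone. That spread may be technical.

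CDX2 is the homeodomain transcription factor that sets and keeps the identity of the intestinal epithelium, where it drives genes of absorption and of the brush border and holds genes of more anterior gut off. APC is part of the complex that marks beta-catenin for destruction, and mutation of Apc is known for raising Wnt signalling and for the growth of intestinal polyps. In the mouse cecum, surface colonocytes take up salt, water and short-chain fatty acids, goblet cells secrete mucus, and crypts hold the Wnt-dependent dividing cells.

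The 6 libraries held 42442153 to 71485860 reads assigned to genes, the compound mutants being the shallower group. Levels are given as CPM, the usual depth-scaled read count, here with edgeR's TMM factors and no correction for gene length, so levels are compared between libraries and not between genes. Chi-square tests of the counts of every pair of libraries within a group gave statistics of 66.1 to 290 per degree of freedom. That is far above sampling noise, so none of the 6 looks like another library sequenced again. It does not tell whether the libraries of a group come from different mice. Correlations of log CPM across genes were 0.972 to 0.979 among compound mutant libraries, 0.969 to 0.989 among WT libraries and 0.87 to 0.916 between the groups. WT replicate 3 differed most from the other WT libraries.

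Cdx2 (ENSMUSG00000029646, chromosome 5, 147300805 to 147307270 on the minus strand, GRCm38) had 623, 663 and 408 CPM in the WT libraries and 151, 122 and 137 CPM in the compound mutants. The groups did not overlap, and reads of the gene remained in each mutant library. The log2 change was -2.05 ± 0.49 (SE, n = 3 per group; adjusted p = 0.00167, edgeR). Its paralog Cdx1, likewise a homeodomain factor of the intestine, fell from 332, 304 and 204 CPM to 11.9, 7.72 and 19.9 CPM, a log2 change of -4.41 ± 0.88 (adjusted p = 0.000391). Apc had 180, 206 and 181 CPM in WT and 186, 179 and 172 CPM in the compound mutants, and the change of -0.08 ± 0.18 did not pass the test (adjusted p = 0.732). A gene total does not tell a mutant from a normal Apc transcript, so Apc checks no label here.

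Of 20502 genes tested, 5458 (26.6%) rose and 5361 (26.1%) fell in the compound mutant at an adjusted p under 0.05. Together they make 10819 genes, or 52.8%. The shares of 26.6% and 26.1% are the background for the counts of rises and falls against WT in this main fit. Counts from another setting or comparison have another background. A fit of the 6 libraries alone called 4181 rises and 3971 falls among all genes, and total count scaling is given below. All 3 compound mutant libraries lay above all WT libraries for 28.5% of the genes and below them for 27%, together 55.5%. Among the genes called, 1948 rose and 1233 fell by more than 2 on the log2 scale, and 388 rose and 94 fell by more than 5. The median gene changed by 0.07. Scaling to total gene counts moved the median to 0.50, a shift of 0.42, and turned the split from 50.4% higher calls to 72.7% (8308 rises and 3118 falls). The TMM factors were 0.7301, 0.714 and 0.9417 in WT and 1.0867, 0.9857 and 1.1534 in the compound mutants. Changes of well under 0.5 are therefore read relative to that shift.

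**Figure D1:**
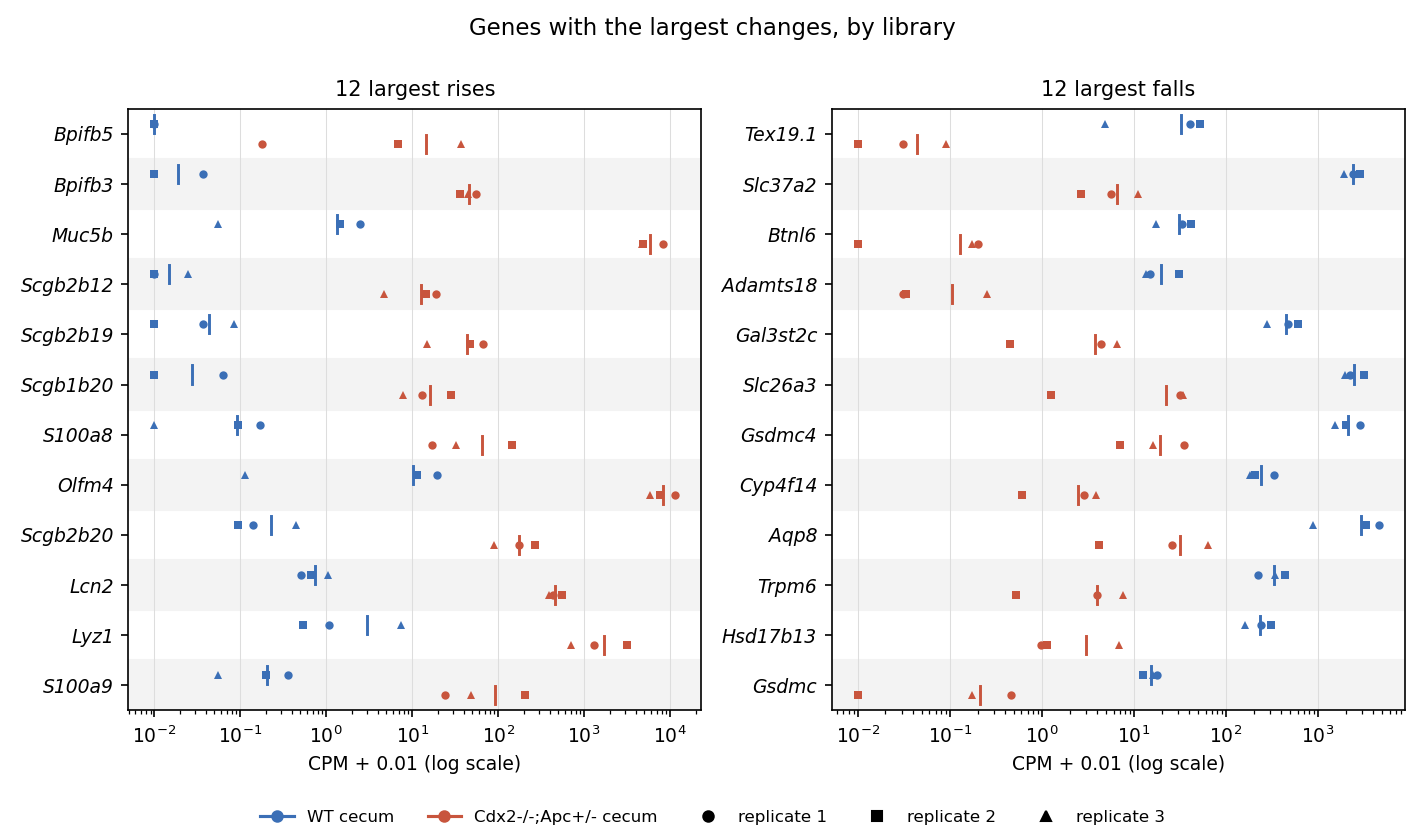
The 12 largest rises (left) and falls (right) among called genes with a group mean of at least 10 CPM and no overlap, as CPM + 0.01 on a log axis. Each mark is a library (shape gives the replicate) and the vertical line is the group mean. Muc5b sits at 4723 to 8286 CPM in the compound mutants against at most 2.46 in WT, and Slc37a2 at 2.64 to 11.1 CPM against 1914 to 2825.

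Channels and carriers of the surface colonocyte were among the 12 deepest falls that the plot of the largest changes shows. Slc37a2, a sugar phosphate carrier, had 2369, 2825 and 1914 CPM in WT and 5.66, 2.64 and 11.1 CPM in the compound mutants (log2 change -8.52 ± 0.68, adjusted p = 2.8e-08). Slc26a3 (ENSMUSG00000001225, chromosome 12, 31390871 to 31473917, plus strand), the apical chloride-bicarbonate exchanger, went from 2245, 3164 and 1975 CPM to 31.5, 1.25 and 33.8 CPM (-6.79 ± 1.37, adjusted p = 0.000398). The rule for the 12 deepest falls required that the groups not overlap, and compound mutant replicate 2 was the lowest for both genes. Aqp8 (ENSMUSG00000030762, chromosome 7, 123462291 to 123468004, plus strand), a water channel, had 4556, 3329 and 881 CPM against 25.9, 4.12 and 64.5 CPM (-6.53 ± 1.88, adjusted p = 0.0069). Trpm6, the apical magnesium channel, had 224, 433 and 344 CPM against 3.91, 0.509 and 7.52 CPM (-6.38 ± 0.99, adjusted p = 3.3e-05). In bulk tissue, fewer colonocytes and less RNA per colonocyte cannot be told apart.

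The promoter windows of a few of these genes show what lies at the start sites of a gene that fell or rose. They are the RefSeq windows of GRCm38.p6 from 250 bases before to 50 after the start, given for Aqp8 (chr7:123462044-123462343, plus strand), Slc26a3 (chr12:31437969-31438268, plus strand), S100a8 (chr3:90668821-90669120, plus strand) and Lcn2 (chr2:32387690-32387989, minus strand). Capitals mark the letters TTTATNG, a core to which CDX factors bind, searched on both strands.
Aqp8: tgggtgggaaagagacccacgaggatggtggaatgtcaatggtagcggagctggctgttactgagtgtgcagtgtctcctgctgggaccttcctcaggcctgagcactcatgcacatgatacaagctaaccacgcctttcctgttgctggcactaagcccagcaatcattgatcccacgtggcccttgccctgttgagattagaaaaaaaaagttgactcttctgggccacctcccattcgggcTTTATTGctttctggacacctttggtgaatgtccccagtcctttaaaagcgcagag
Slc26a3: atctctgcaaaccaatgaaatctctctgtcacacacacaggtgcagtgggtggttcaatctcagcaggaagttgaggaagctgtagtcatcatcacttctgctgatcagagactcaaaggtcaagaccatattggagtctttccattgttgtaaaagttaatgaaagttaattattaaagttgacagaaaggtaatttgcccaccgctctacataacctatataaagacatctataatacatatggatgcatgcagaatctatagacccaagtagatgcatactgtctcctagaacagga
S100a8: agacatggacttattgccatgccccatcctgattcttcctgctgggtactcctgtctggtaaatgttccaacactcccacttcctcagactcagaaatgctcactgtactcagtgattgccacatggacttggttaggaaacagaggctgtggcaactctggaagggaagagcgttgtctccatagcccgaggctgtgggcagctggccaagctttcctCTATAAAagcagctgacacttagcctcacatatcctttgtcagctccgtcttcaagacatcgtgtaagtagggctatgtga
Lcn2: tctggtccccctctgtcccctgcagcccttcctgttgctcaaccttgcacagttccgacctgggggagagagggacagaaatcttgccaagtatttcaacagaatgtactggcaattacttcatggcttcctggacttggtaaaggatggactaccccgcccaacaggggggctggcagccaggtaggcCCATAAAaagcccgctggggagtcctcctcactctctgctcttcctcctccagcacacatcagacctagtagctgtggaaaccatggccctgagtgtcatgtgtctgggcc
Aqp8 held a match whose first base lies at -6 from the start, S100a8 at -31 and Lcn2 at -61, and the Slc26a3 window held none. In S100a8 the match reads CTATAAA on the gene's strand and so contains the letters TATAAA of the TATA box. Of the 12 genes with the deepest falls, 10 had a window and 1 (10%) held the motif; of the 12 with the largest rises, 10 had a window and 3 (30%) held it. Among all 27025 genes with a window, 12.5% held a match, so the share among the deepest falls was near that of genes at large. No window of 10 intestinal transcription factor genes held it. These are matches of letters and not sites of binding.

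**Figure D2:**
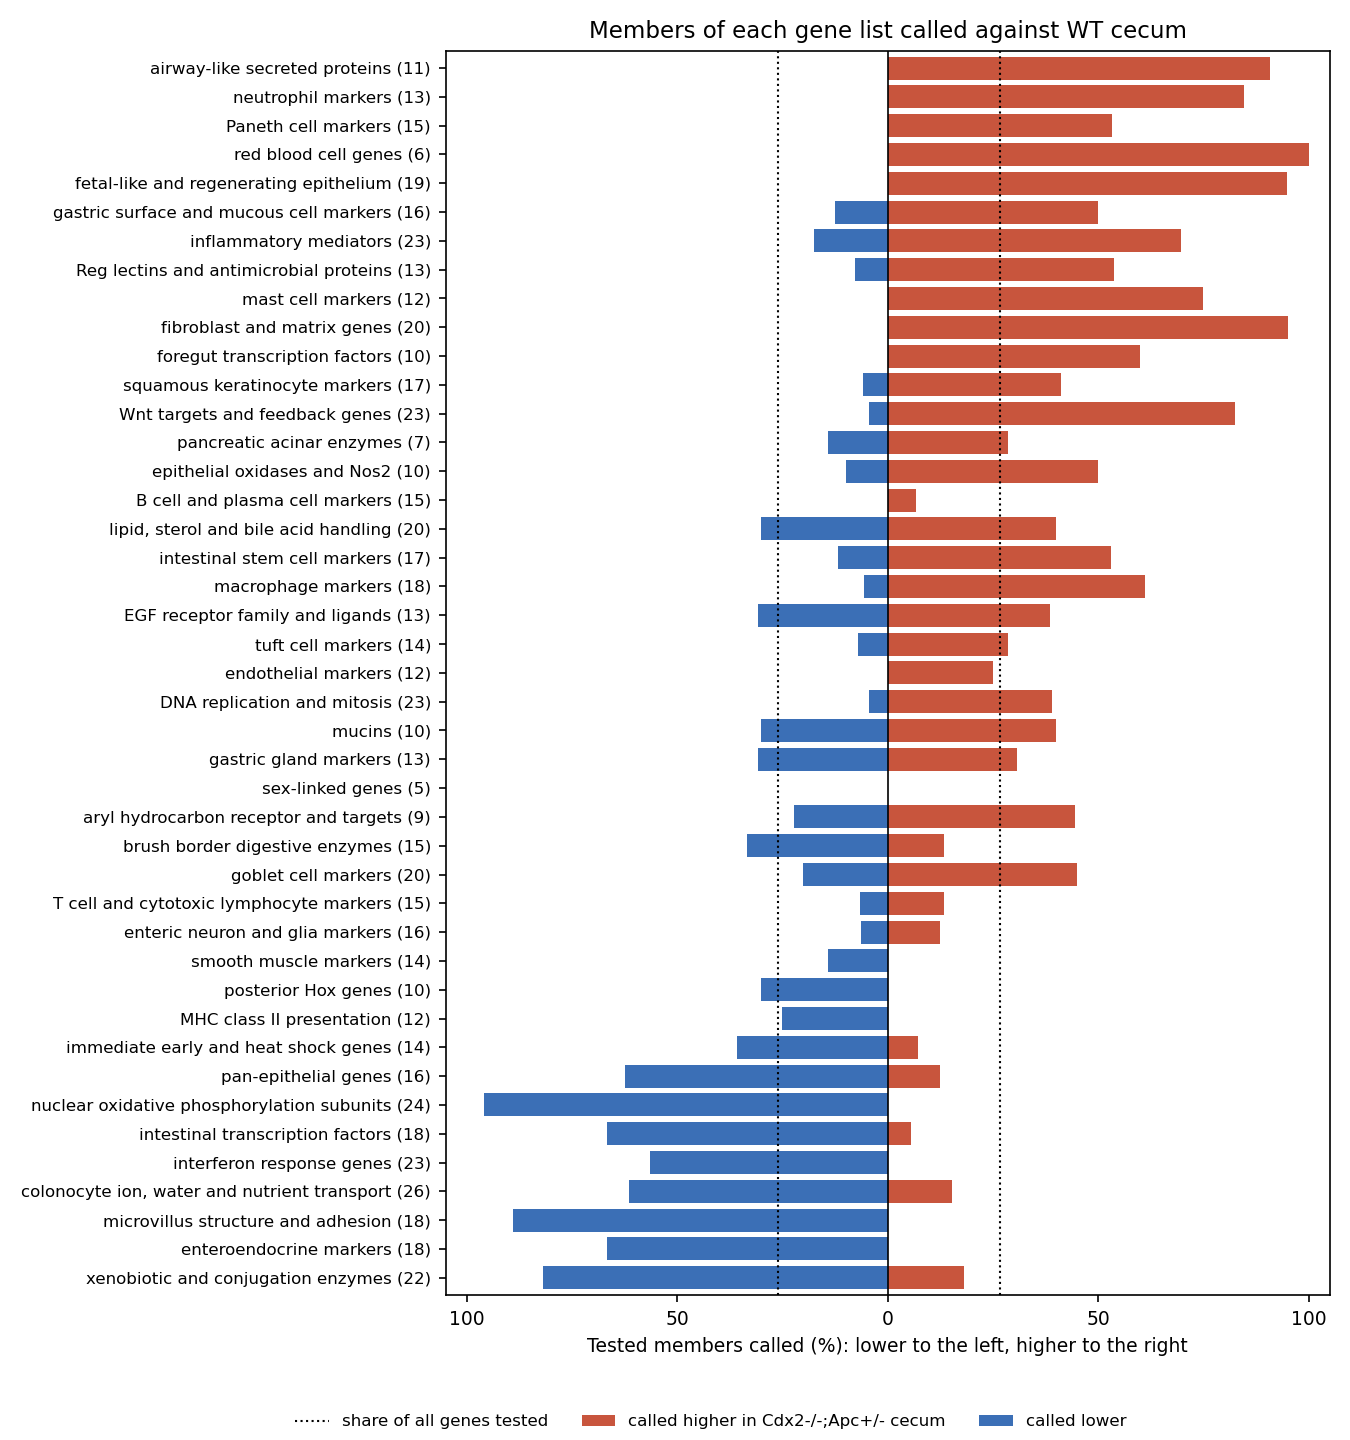
For each of 43 gene lists, the percent of tested members that rose (right) or fell (left) in the compound mutant at an adjusted p under 0.05, ordered by the list's median log2 change. Dotted lines give the shares over all genes, 26.6% higher and 26.1% lower. Oxidative phosphorylation subunits, microvillus genes and xenobiotic enzymes stand far to the left of the line, and fibroblast, airway-like and fetal-like genes far to the right.

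Most colonocyte transport genes fell. Of 26 tested transport genes 16 fell and 4 rose, with a median log2 change of -2.35 against 0.07 over all genes. Their summed level was 27854 to 46547 CPM in WT and 2213 to 3567 CPM in the compound mutants. Slc16a1, a carrier of butyrate, fell from 1963, 2489 and 1195 CPM to 93, 160 and 111 CPM (-3.96 ± 0.27, adjusted p = 5.32e-09). Slc20a1, a phosphate carrier, fell by 3.44 (SE 0.28), the calcium pump Atp2b1 by 2.52 (SE 0.19) and the sodium-proton exchanger Slc9a2 by 3.95 (SE 0.48). Slc9a3, the other apical sodium-proton exchanger, did not pass the test (-1.24 ± 0.90, adjusted p = 0.258). Its mutant libraries had 4.42, 3.4 and 82.1 CPM against 130, 43.8 and 39.4 CPM in WT, and without compound mutant replicate 3 the change was -4.18 (adjusted p = 0.000497). Across the list, replicate 2 was the lowest compound mutant library for 19 of 26 members. Without it 12 members fell, and without compound mutant replicate 1 14 fell. The 4 rises went against the rest of the list. Slc12a2, the basolateral chloride importer of secreting cells, had 62, 62.9 and 152 CPM in WT and 698, 547 and 644 CPM in the compound mutants (2.77 ± 0.36, adjusted p = 4.32e-06). The calcium channel Trpv6 rose by 5.19 ± 1.20, the sodium channel subunit Scnn1g by 3.07 ± 0.45 and the proton pump Atp12a by 3.25 ± 0.98, all from at most 1.14 CPM in WT, and Atp12a reached 6.76 without WT replicate 3.

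Genes of the apical surface fell too. Of 18 tested genes for microvillus structure and adhesion, 16 fell and none rose (median -2.62). WT replicate 3 was the lowest WT library for all 18 members, as it was for 16 of 16 pan-epithelial genes and 23 of 24 oxidative phosphorylation genes described below. Leaving out that library gave the same counts of rises and falls for all 3 lists. The scaffold Slc9a3r1, which ties membrane transporters to ezrin, fell from 1416, 1366 and 602 CPM to 51.4, 58.2 and 74.8 CPM (-4.20 ± 0.65, adjusted p = 3.3e-05). Villin (Vil1), the actin bundler of the microvillus core, had 2216, 2195 and 1288 CPM against 339, 284 and 292 CPM (-2.64 ± 0.49, adjusted p = 0.000198). The intermicrovillar adhesion genes Ush1c (-4.17 ± 0.74) and Anks4b (-2.80 ± 0.43) and the bundler Espn (-3.95 ± 0.63) were each below WT in all 3 mutant libraries. Ezr (-0.82 ± 0.42, adjusted p = 0.109) and Pdzk1 (1.72 ± 1.62, adjusted p = 0.39) did not pass the test.

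Brush border digestive enzymes moved in both directions, with 5 of 15 lower, 2 higher and a median of -0.04 that became 0.38 with total count scaling. That is 46.7% called either way, below the 52.8% of all genes. The meprins Mep1a (-5.33 ± 1.49) and Mep1b (-3.40 ± 0.97) and the alkaline phosphatase Alpi (-3.79 ± 1.15) fell, and 3 of the list fell without compound mutant replicate 2 or WT replicate 2. The 2 rises, of the lactase Lct (5.11) and the aminopeptidase Anpep (2.76), both lost their calls without WT replicate 1 or 2, and Lct without any other library as well. Among 20 genes of lipid, sterol and bile acid handling, 8 rose and 6 fell (median 1.02). Fabp2, the enterocyte fatty acid binding protein, fell from 1721, 2037 and 867 CPM to 36, 12.2 and 89 CPM (-5.07 ± 1.21, adjusted p = 0.00179). Abca1, a cholesterol exporter, rose from 8.08, 9.56 and 19 CPM to 72.8, 74.6 and 83.9 CPM (2.66 ± 0.30, adjusted p = 1.06e-06), and the sterol transporter Abcg5 by 3.81 ± 0.80. The counts for this list were 5 higher and 3 lower without compound mutant replicate 2, and 5 were higher without WT replicate 2 or 3.

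The largest differences in CPM on the losing side were of surface proteins and enzymes of the mature colonocyte. Car1, a carbonic anhydrase, had 26794, 23554 and 15034 CPM in WT and 958, 61.2 and 1161 CPM in the compound mutants. The groups lay far apart, yet the spread among the mutants was wide, and the change of -4.91 ± 1.87 (adjusted p = 0.034) lost its call when any library but WT replicate 3 was left out (adjusted p up to 0.0989). Lypd8, which keeps flagellated bacteria off the colon surface, fell from 21734, 30018 and 10946 CPM to 2301, 1567 and 1767 CPM (-3.48 ± 0.65, adjusted p = 0.000211). Prdx6, a peroxidase, fell by 4.03 (SE 0.27) and Cyp2c55, a cytochrome P450, by 5.05 (SE 1.58).

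Enzymes that modify foreign compounds mostly fell. Of 22 tested xenobiotic and conjugation enzymes 18 fell and 4 rose, and none missed the threshold (median -3.79). The carboxylesterase Ces1g had 839, 928 and 912 CPM in WT and 21, 18.2 and 34.8 CPM in the compound mutants (-5.18 ± 0.54, adjusted p = 4.66e-07). The sulfotransferase Sult1a1 fell by 4.02 (SE 0.52) and the glucuronosyltransferase Ugt2b34 by 2.22 (SE 0.22). The glutathione transferase Gsta4 rose from 42.7, 42.5 and 28.5 CPM to 534, 702 and 516 CPM (3.95 ± 0.41, adjusted p = 4.53e-07).

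The drug b-naphthoflavone acts through the aryl hydrocarbon receptor, whose targets were read for that reason. Cyp1a1, the classic target, was too low to test. Of 9 tested genes of the receptor and its targets, 4 rose and 2 fell, and the median was 0.00. Cyp1b1, a cytochrome P450, rose from 0.0795, 0.0837 and 0.461 CPM to 16.7, 7.35 and 15.7 CPM (5.84 ± 0.82, adjusted p = 1.14e-05), and the receptor Ahr rose by 0.74 ± 0.16. The falls were of the glucuronosyltransferases Ugt1a6b (-4.72, lost without compound mutant replicate 2) and Ugt1a6a (-1.09, lost without any of the 6 libraries). Nqo1, a quinone reductase, rose by 1.31 ± 0.51 (adjusted p = 0.0378), a call lost when compound mutant replicate 2 or 3 or any WT library was left out. How much of any change comes from the drugs was not tested.

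Genes of mitochondrial respiration fell nearly throughout. Of 24 tested nuclear genes of oxidative phosphorylation 23 fell (median -1.26), and 22 fell when libraries were scaled to total counts. Sdhb, a succinate dehydrogenase subunit, had 316, 309 and 239 CPM in WT and 69.1, 75.3 and 77.8 CPM in the compound mutants (-1.96 ± 0.15, adjusted p = 2.35e-08). Cox5a, of cytochrome oxidase, fell by 2.21 (SE 0.22) and Ndufs1, of complex I, by 1.11 (SE 0.11). Among 16 pan-epithelial genes 10 fell and 2 rose (median -1.08). Epcam, the general epithelial adhesion protein, had 2633, 3077 and 1917 CPM against 1216, 1552 and 1117 CPM (-0.97 ± 0.25, adjusted p = 0.00351). Cdh1, epithelial cadherin, did not pass the test (-0.01 ± 0.22, adjusted p = 0.967), and with total count scaling it was higher (0.44, adjusted p = 0.0341).

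Most regulators of intestinal identity fell. Of 18 intestinal transcription factors, 12 fell and 1 rose (median -1.89; 10 fell and 4 rose with total count scaling). Cdx2 itself, the floxed gene, is among the 12, and its fall is no separate result. Hnf4a, a nuclear receptor of the enterocyte, had 2163, 2147 and 1219 CPM in WT and 264, 198 and 293 CPM in the compound mutants (-2.87 ± 0.35, adjusted p = 2.7e-06), and its paralog Hnf4g fell by 3.16 (SE 0.52). Klf4, a factor of differentiated surface cells, fell by 2.89 (SE 0.41). The vitamin D receptor Vdr fell from 674, 779 and 465 CPM to 23.3, 8.79 and 63 CPM (-4.33 ± 0.83, adjusted p = 0.000246), and the intestine-specific homeobox gene Isx fell by 4.31 (SE 0.97). The single rise was of Gata5, a zinc finger factor of the gut endoderm, from 1.03, 1.95 and 0.431 CPM to 76.4, 79 and 73.1 CPM (6.08 ± 0.36, adjusted p = 1.78e-09). The compound mutant libraries were alike for Gata5 to within a few CPM and far above all WT libraries.

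Posterior Hox genes, which mark position along the gut, changed in part. Hoxa9 (-2.97 ± 0.61), Hoxa10 (-2.66 ± 0.81) and Hoxa13 (-3.75 ± 1.02) fell, 3 of 10 tested, and none rose (median -0.58). That 30% is near the 26.1% of all genes that fell. Hoxb9 had 64.2, 58.5 and 62.4 CPM in WT and 181, 134 and 147 CPM in the compound mutants. Those groups did not overlap, but the change of 1.32 ± 0.95 did not pass the test in the fit of all 24 libraries (adjusted p = 0.258). A fit of only the groups compared gave 1.38 (adjusted p = 0.000932).

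Secreted proteins led the gains. Muc5b (ENSMUSG00000066108, chromosome 7, 141839070 to 141873084, plus strand), the gel-forming mucin of airways and salivary glands, had 2.46, 1.42 and 0.0446 CPM in WT and 8286, 4813 and 4723 CPM in the compound mutants (log2 change 12.18 ± 2.44, adjusted p = 0.000388). A lack of overlap was required for a place among the largest rises, where Muc5b was named. Of 11 tested genes for secreted proteins typical of airways and glands, 10 rose and none fell (median 6.91). Sftpd, a surfactant lectin, rose from 0.742, 0.293 and 0 CPM to 115, 89.8 and 97.5 CPM (8.35 ± 1.20, adjusted p = 1.4e-05). Scgb3a1, a secretoglobin, rose by 7.31 ± 1.06, the iron-binding lactoferrin Ltf by 6.91 ± 1.38 and Bpifb1, of the lipid-binding family of airway and nasal fluid, by 4.91 ± 0.82. Bpifb5 was at 0 in every WT library and at 0.17, 6.78 and 36.9 CPM in the compound mutants, replicate 3 carrying most of the reads. Bpifb3 had 55.4, 36.4 and 45 CPM against at most 0.0265. Several secretoglobin genes of the clustered Scgb2b and Scgb1b families (Scgb2b12, Scgb2b19, Scgb2b20 and Scgb1b20) were among the largest rises, from 9.55 to 10.52. Near-identical copies can share reads, so the split between members of the Scgb and Bpifb families is uncertain.

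Mucins moved in both directions. Of 10 tested, 4 rose and 3 fell (median 0.45). Beside Muc5b, the membrane mucin Muc1 rose from 2.94, 5.12 and 0.891 CPM to 333, 241 and 225 CPM (6.49 ± 0.86, adjusted p = 5.92e-06) and the gland mucin Muc6 by 5.68 ± 1.02, with Muc20 up by 2.67. Muc3, the membrane mucin of the colonocyte brush border, fell from 8616, 9186 and 4176 CPM to 157, 48.3 and 167 CPM (-5.88 ± 0.93, adjusted p = 3.92e-05), and Muc13 fell by 3.04 (SE 0.69). Muc2, the gel-forming mucin of intestinal goblet cells, did not pass the test (-0.41 ± 0.80, adjusted p = 0.688), with 894, 468 and 1446 CPM in WT and 304, 526 and 1278 CPM in the compound mutants.

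Goblet cell genes did so as well. Of 20 tested, 9 rose and 4 fell, with a median of -0.17 that became 0.25 with total count scaling. The rises included regulators and folding enzymes of secretory cells. Ern2, a stress sensor of mucous cells, had 16.6, 12.9 and 36.4 CPM in WT and 322, 323 and 287 CPM in the compound mutants (3.82 ± 0.36, adjusted p = 1.76e-07). Spdef, the transcription factor of goblet maturation, rose by 2.85 ± 0.33, Creb3l4 by 3.95, Bcas1 by 2.34 and Agr2, which folds mucins, by 2.01 ± 0.39. The falls were of Clca1, Zg16 and Tff3, secreted by intestinal goblet cells, and of Atoh1, the transcription factor that specifies secretory cells. Clca1 fell from 1401, 699 and 1598 CPM to 47.9, 11 and 154 CPM (-4.12 ± 1.00, adjusted p = 0.00196). The calls of Zg16 (-3.18), Tff3 (-2.18) and Atoh1 (-2.11) were each lost without compound mutant replicate 1, which leaves 1 fall. Without compound mutant replicate 2 or WT replicate 3 there were 2 falls.

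Paneth cells make antimicrobial proteins in the small intestine and are few in normal large intestine. Of 15 tested Paneth markers 8 rose and none fell (median 5.26). Lyz1 (ENSMUSG00000069515, chromosome 10, 117287797 to 117292868, minus strand), the Paneth lysozyme, had 1.06, 0.523 and 7.37 CPM in WT and 1309, 3176 and 699 CPM in the compound mutants (9.15 ± 1.43, adjusted p = 3.36e-05). The matrilysin Mmp7 rose from at most 0.874 CPM to 158, 300 and 152 CPM (8.64 ± 1.14, adjusted p = 5.99e-06). Defa24, a defensin of a family of near-identical genes, rose by 8.96 ± 1.36 and the secreted phospholipase Pla2g2a by 9.56 ± 1.62. Ang4, an angiogenin of Paneth cells, did not pass the test (-3.33 ± 1.41, adjusted p = 0.0548). Replicate 1 was the lowest mutant library for 11 of the 15 members.

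Among 13 tested Reg lectins and antimicrobial proteins 7 rose and 1, Lypd8, fell (median 3.28). Lcn2, which binds bacterial iron carriers, had 0.503, 0.648 and 1.05 CPM in WT and 435, 560 and 388 CPM in the compound mutants (9.26 ± 0.87, adjusted p = 1.4e-07). The lectin Reg3g rose by 6.17 ± 0.95 and the peptidoglycan binder Pglyrp1 by 3.28 ± 0.31. Reg3b did not pass the test (1.51 ± 1.00, adjusted p = 0.217). Dmbt1, a scavenger receptor protein of mucus, was already high in WT, with 9998, 10424 and 9637 CPM, and reached 51980, 56265 and 38449 CPM (2.29 ± 0.58, adjusted p = 0.00283).

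Markers of hormone-producing cells fell. Of 18 tested enteroendocrine markers 12 fell and none rose (median -2.65), and 7 fell without compound mutant replicate 2. Chga, a granule protein of these cells, had 58.2, 54.6 and 58.6 CPM in WT and 2.79, 1.48 and 9.05 CPM in the compound mutants (-3.68 ± 0.71, adjusted p = 0.00027). The hormones Sct (-4.45 ± 0.97) and Nts (-4.09 ± 1.07) and the transcription factors Pax6 (-2.61 ± 0.61) and Insm1 (-2.65 ± 0.57) fell too. Tuft cell markers gave 4 rises and 1 fall among 14 (median 0.69), 35.7% called against 52.8% of all genes. Among the rises was Avil, an actin severing protein, at 66, 103 and 87.1 CPM against 8.9, 8.35 and 7.1 CPM (3.39 ± 0.30, adjusted p = 8.73e-08). The fall, of the cytokine receptor Il17rb (-0.87), lost its call without compound mutant replicate 2 or WT replicate 1 or 2 and with total count scaling.

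Gastric genes rose in part, and the level in WT stomach gives the scale. Of 16 tested markers of gastric surface and mucous cells 8 rose and 2 fell (median 3.74; 10 rose with total count scaling), their summed level being 39.2 to 835 CPM in WT cecum and 4052 to 7644 CPM in the compound mutants. Aqp5, a water channel of pyloric glands, had 1.51, 1.4 and 0 CPM in WT cecum and 243, 329 and 183 CPM in the compound mutants (8.07 ± 0.88, adjusted p = 7.45e-07). Tff2, the trefoil peptide of mucous neck cells, had 56.4, 46.2 and 0.357 CPM against 1904, 2812 and 1139 CPM (5.83 ± 1.29, adjusted p = 0.00091). Gkn3, a gastrokine, rose by 6.20 ± 1.21 and Ctse, a gastric aspartic protease, by 5.34 ± 0.73. The 2 falls were of Anxa10 (-4.80), whose call was lost without compound mutant replicate 1 or 3 or WT replicate 2, and of the protease Capn9 (-2.24), lost without compound mutant replicate 1 or 2 or WT replicate 3. The surface cell genes Gkn1 (2.56, adjusted p = 0.0704) and Muc5ac (0.86) did not pass the test. WT replicate 2 bears on both, being the highest WT library for 12 of the 16 members: without it Gkn1 gave 3.84 (adjusted p = 0.0342) and Muc5ac 4.17 (adjusted p = 0.00929).

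Markers of the gastric glands moved in both directions. Of 13 tested, 4 rose and 4 fell (median 0.41). That is 61.5% called either way, against 52.8% of all genes. Kcnq1, a potassium channel, rose from 54.4, 56 and 57.5 CPM to 236, 253 and 209 CPM (2.06 ± 0.24, adjusted p = 1.73e-06) and Bhlha15, a factor of secretory cells, by 3.01 ± 0.36. The histamine enzyme Hdc (3.35) and the anion exchanger Slc26a7 (2.83) rose too. The falls were of acid and enzyme genes at low levels and rest on WT replicate 2, without which no member was called lower. Pgc, the pepsinogen of chief cells, had 16, 355 and 1.56 CPM in WT cecum, 5.35, 14 and 13.5 CPM in the compound mutants and a mean of 128897 CPM in WT stomach. Its change of -3.51 became 0.32 (adjusted p = 0.852) without that library, and Atp4b, of the acid pump, went from -6.08 to -1.72 and Chia1, a chitinase, from -7.44 to -4.01. Pga5, a pepsinogen, lost its call likewise, and the calls of Pgc and Pga5 were also lost without any compound mutant library, which leaves 2 falls each time.

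**Figure D3:**
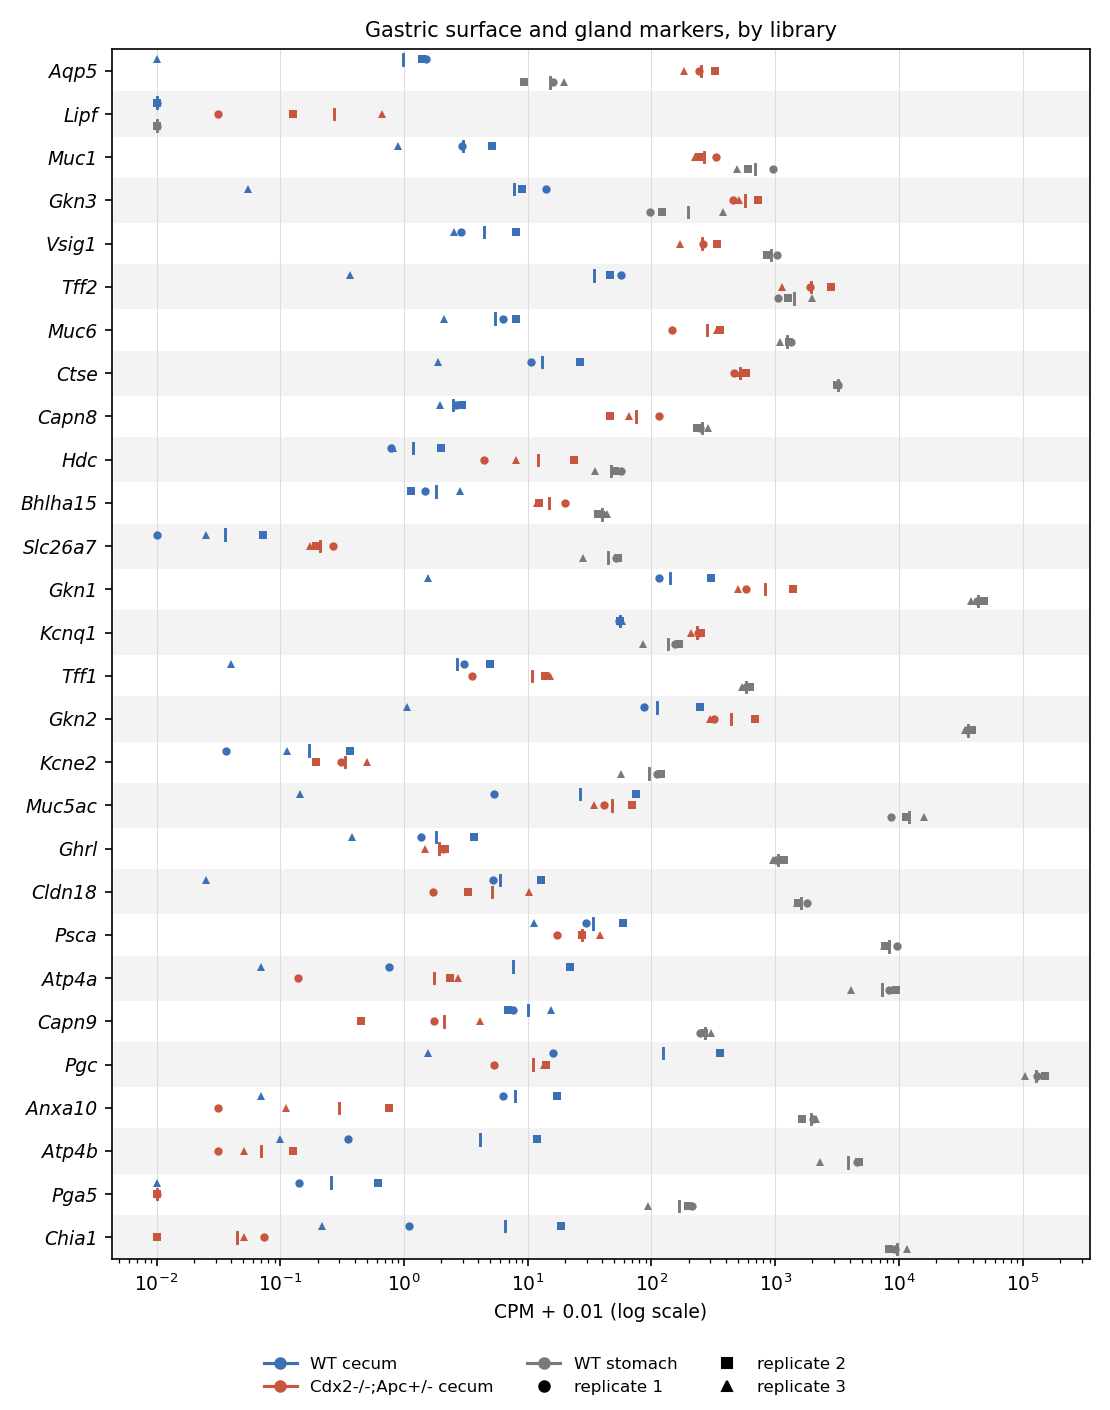
Gastric surface and gland markers in WT cecum (blue), compound mutant cecum (red) and WT stomach (grey), each mark a library and the vertical line the group mean, as CPM + 0.01 on a log axis. Tff2, Gkn3 and Aqp5 in the compound mutants reach the level of the stomach libraries or pass it, while Pgc, Chia1 and Atp4b stay far below the stomach.

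Some transcription factors of the foregut and some squamous genes rose. Of 10 foregut factors 6 rose and none fell (median 1.78). Pax9, of the pharynx and esophagus, had 0.212, 0.251 and 0.223 CPM in WT and 25.3, 13.9 and 21.5 CPM in the compound mutants (6.45 ± 0.86, adjusted p = 6.24e-06). Foxq1, of the stomach, rose from 1.11, 1.72 and 0.535 CPM to 39.5, 79.2 and 45.5 CPM (5.63 ± 0.44, adjusted p = 2.21e-08). Trp63, the factor of squamous basal cells, rose by 5.02 ± 1.47 but stayed at 0.893 to 1.55 CPM. Sox2, the main factor of stomach and esophagus, did not pass the test (-1.44 ± 0.92, adjusted p = 0.199) and was at most 0.397 CPM in each of the 6 libraries. Tbx1 was called at 2.38 and gave 0.17 without compound mutant replicate 3. Of 17 squamous keratinocyte markers 7 rose and 1 fell (median 1.54), 47.1% called against 52.8% of all genes. Their summed level was 262 to 1453 CPM in WT and 292 to 519 CPM in the compound mutants. Ivl, an envelope protein, had 5.23, 18.8 and 9.71 CPM against at most 0.0795 in WT (8.27 ± 1.07, adjusted p = 4.82e-06). The keratin Krt4 rose by 6.08 ± 1.59, the desmoglein Dsg3 by 4.45 ± 0.91 and the basal keratin Krt5 by 4.79 ± 1.54, the last with an adjusted p of 0.0547 without WT replicate 2. The fall, of the envelope protein Sprr2a3 (-1.58, adjusted p = 0.0494), lost its call without any library but WT replicate 3.

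Targets and feedback genes of the Wnt pathway were read because the compound mutant carries a mutant Apc allele. Of 23 tested 19 rose and 1 fell (median 1.52), with a summed level of 369 to 479 CPM in WT and 1268 to 1580 CPM in the compound mutants. In Cdx2-/- cecum, without the Apc mutation, the sum was 1183 to 1704 CPM in set 1 and 1232 to 1440 CPM in set 2. The count of rises was 14 when compound mutant replicate 3, WT replicate 1 or WT replicate 2 was left out. Sox9, a crypt transcription factor, had 18.4, 17.2 and 20.9 CPM in WT and 104, 103 and 110 CPM in the compound mutants (2.49 ± 0.28, adjusted p = 1.09e-06). Cd44, a hyaluronan receptor of crypts, had 45.5, 39.4 and 90 CPM against 532, 610 and 437 CPM (3.17 ± 0.35, adjusted p = 6.96e-07). For both, each mutant library was above each WT library and the 3 mutant libraries were close. Sp5, a direct target factor, rose by 4.15 ± 0.50 and the membrane inhibitor Apcdd1 by 3.58 ± 0.55.

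The secreted inhibitors varied more. Notum, which inactivates Wnt ligands, had 0.371, 0.544 and 0.119 CPM in WT and 0.532, 5.02 and 25.6 CPM in the compound mutants (4.97 ± 0.98). Wif1, which binds them, had 0.503, 0.502 and 0.683 CPM against 3.1, 12.7 and 76.7 CPM (5.75 ± 0.85). Replicate 1 was low and replicate 3 high for both, and for Notum the lowest mutant library lay within the WT range. Replicate 3 was the highest compound mutant library for 19 of the 23 members and replicate 1 for none. Without replicate 3 the changes were 3.06 for Notum, 3.79 for Wif1 and 1.53 (from 3.20) for Prox1, a homeobox target. The feedback gene Axin2 rose by 1.13 (adjusted p = 0.0232; 13.4, 20.4 and 50.2 CPM in the mutants), Nkd1 by 1.51 and Myc by 0.71. Each lost its call without compound mutant replicate 3 (0.41, 0.38 and 0.37) and also without WT replicate 1 or 2. Dkk3, a related secreted protein (0.90, adjusted p = 0.0492), lost its call without any library but WT replicate 3 (adjusted p = 0.115 without compound mutant replicate 3). Tcf7l2, the main Wnt factor of intestinal epithelium, fell from 187, 151 and 82.7 CPM to 38.8, 50.1 and 35.6 CPM (-1.76 ± 0.27, adjusted p = 2.45e-05), while Lef1, of the same family, rose by 1.54 ± 0.33.

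**Figure D4:**
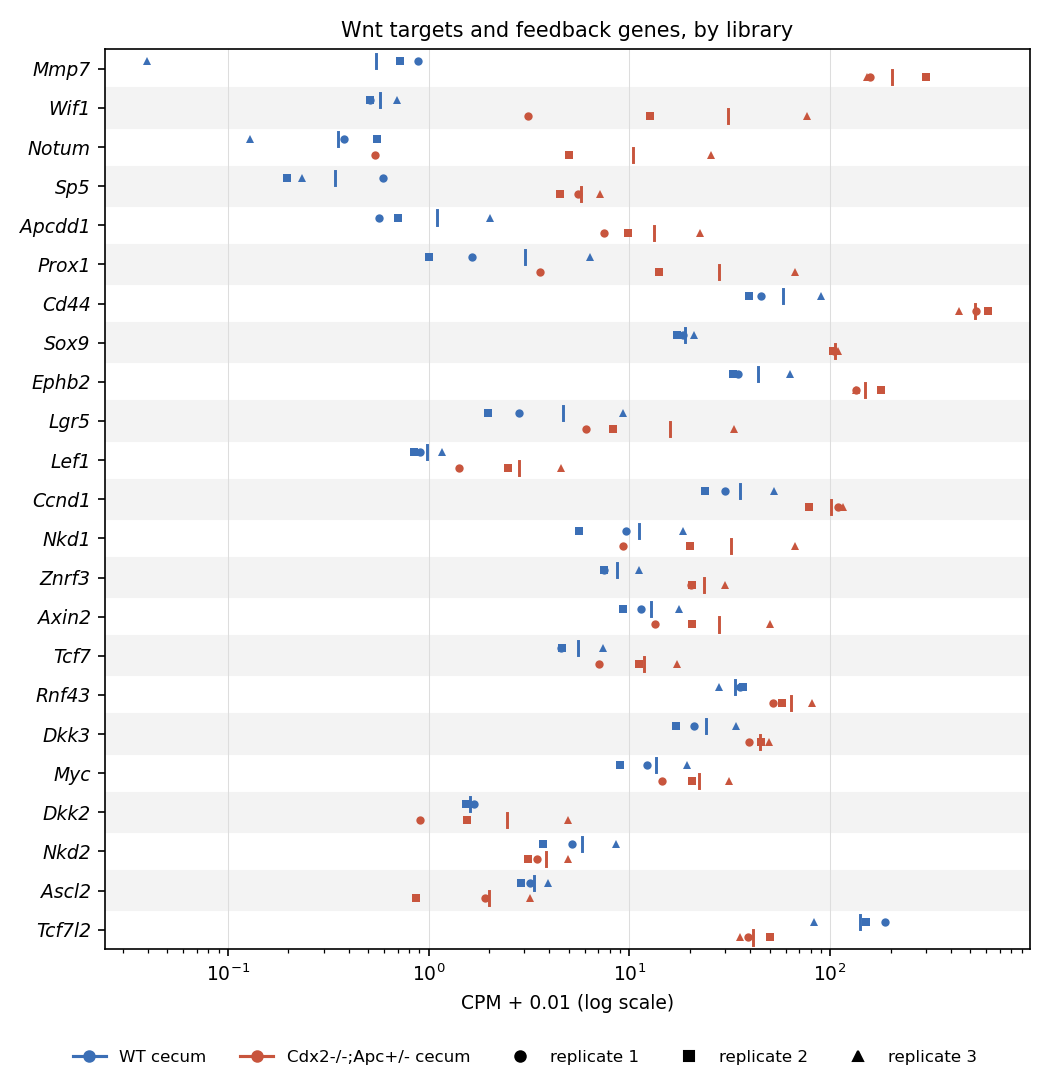
The 23 tested Wnt targets and feedback genes in WT (blue) and compound mutant (red) cecum, each mark a library and the vertical line the group mean, as CPM + 0.01 on a log axis. Cd44 and Sox9 show tight and separate groups, while Notum spreads from 0.532 to 25.6 CPM among the compound mutants with replicate 3 the highest.

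Stem cell markers rose in part. Of 17 tested 9 rose and 2 fell (median 0.95). Lgr5, Ascl2, Sox9, Cd44 and Ephb2 are on the Wnt list as well, and Mmp7 is on both the Wnt and the Paneth list. The counts of these lists are therefore not separate results. Olfm4 (ENSMUSG00000022026, chromosome 14, 79984081 to 80023139, plus strand), a secreted glycoprotein that marks crypt base cells of the small intestine, had 19.4, 11.5 and 0.104 CPM in WT and 11580, 7763 and 5825 CPM in the compound mutants (9.67 ± 1.69, adjusted p = 0.000107). Smoc2 rose from 4.48, 2.57 and 10.6 CPM to 69.2, 122 and 72.6 CPM (3.89 ± 0.51, adjusted p = 4.79e-06), and Lrig1, a brake on growth factor receptors, by 0.95 ± 0.19. Lgr5, the receptor that marks crypt base stem cells, had 2.81, 1.97 and 9.27 CPM in WT and 6.06, 8.32 and 33.2 CPM in the compound mutants. These groups overlapped, and the call (1.75 ± 0.66, adjusted p = 0.0326) was lost without compound mutant replicate 3 (0.61, adjusted p = 0.445) or WT replicate 1 or 2. Ascl2, a stem cell transcription factor, did not pass the test (-0.75 ± 0.52, adjusted p = 0.235), and Hopx fell by 2.16 (SE 0.44).

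Genes known from fetal and regenerating intestinal epithelium rose almost as a whole. Of 19 tested 18 rose and none fell (median 3.81). Clu (ENSMUSG00000022037, chromosome 14, 65968483 to 65981547, plus strand), a chaperone of injured epithelium, had 111, 74.4 and 25.2 CPM in WT and 9705, 11166 and 9176 CPM in the compound mutants (7.16 ± 0.64, adjusted p = 8.69e-08). Anxa3, an annexin, rose from 12.3, 8.3 and 10.4 CPM to 246, 364 and 183 CPM (4.67 ± 0.35, adjusted p = 1.34e-08) and Anxa8 by 5.71 ± 0.54. The interleukin 1 antagonist Il1rn rose by 6.03 ± 0.54 and the alarmin Il33 by 5.21 ± 0.71. Ly6a, widely used as a marker of regenerating crypts, rose by 1.61 ± 0.55 (adjusted p = 0.0187), a call lost without compound mutant replicate 2 or WT replicate 3. Areg did not pass the test (0.40 ± 0.58, adjusted p = 0.584). Replicate 2 was the highest compound mutant library for 17 of the 19.

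Ligands and receptors of the EGF family moved in both directions, 5 higher and 4 lower of 13 (median 0.77). The ligand Btc had 3.55, 3.66 and 4.44 CPM in WT and 31.4, 50.2 and 29.8 CPM in the compound mutants (3.25 ± 0.32, adjusted p = 2.2e-07). The ligands Nrg1 (2.60 ± 0.34) and Ereg (2.40 ± 0.51) and the receptor Egfr (0.92 ± 0.22) rose, as did Lrig1, already named. The ligands Tgfa and Epgn fell by 0.92 (SE 0.21) and 2.82, and the receptors Erbb2 and Erbb3 fell by 1.99 (SE 0.19) and 1.16 (SE 0.21).

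Genes of DNA replication and mitosis gave 9 rises and 1 fall among 23 (median 0.46), 43.5% called against 52.8% of all genes. The count of rises turned on the setting and on the WT libraries: 15 rose with total count scaling, 14 without WT replicate 3, 4 without WT replicate 1, 3 without WT replicate 2 and 2 in a fit of the 6 libraries alone. WT replicate 3 was the highest WT library for 22 of the 23. Plk1, a mitotic kinase, had 34.6, 24.1 and 49.3 CPM in WT and 139, 186 and 162 CPM in the compound mutants (2.17 ± 0.20, adjusted p = 1.16e-07). Mcm6, of the replication helicase, rose by 1.34 ± 0.31, and by 2.07 without WT replicate 3. The fall was of Birc5, which guards chromosome separation (-0.69, lost without compound mutant replicate 3 or WT replicate 1). Mki67, the common marker of dividing cells, did not pass the test (0.44 ± 0.29, adjusted p = 0.211), with 102, 61.8 and 153 CPM in WT and 177, 130 and 122 CPM in the compound mutants.

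Most inflammatory mediators rose. Of 23 tested 16 rose and 4 fell (median 3.73). Il6, a cytokine of acute inflammation, had 0.106, 0.146 and 0.119 CPM in WT and 16.9, 14.6 and 11.7 CPM in the compound mutants (6.83 ± 0.99, adjusted p = 1.53e-05). The neutrophil-attracting chemokines Cxcl1, Cxcl2 and Cxcl5 rose by 6.55 ± 0.59, 8.63 ± 1.13 and 7.90 ± 1.25. Ptgs2, the inducible cyclooxygenase, rose from 15.3, 9.31 and 14.5 CPM to 164, 256 and 143 CPM (3.85 ± 0.47, adjusted p = 2.71e-06). Ccl20, which draws lymphocytes to the epithelium, fell by 2.17 (SE 0.51), and Saa1, an acute phase protein, fell by 4.29 (SE 1.57, adjusted p = 0.0281), losing its call without compound mutant replicate 1 or 2 or WT replicate 2. Its relative Saa2 (-3.04) and the NF-kB regulator Nfkbiz (-0.46) also fell, and each lost its call without several single libraries, so that 1 fall was left without compound mutant replicate 1 or WT replicate 2. Of 10 epithelial oxidase genes 5 rose and 1 fell (median 1.43). Duox2, which makes hydrogen peroxide at the surface, had 495, 250 and 279 CPM in WT and 1587, 1228 and 1172 CPM in the compound mutants (1.96 ± 0.50, adjusted p = 0.00284). Nos2 did not pass the test (1.49 ± 1.17, adjusted p = 0.297). The oxidase partner Noxa1 fell by 0.58, a call lost without compound mutant replicate 2 or 3 or WT replicate 2 or 3.

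Marker genes of several other cell types were higher beside these. Of 13 neutrophil markers 11 rose and none fell (median 6.01), the summed level being 12.8 to 16.4 CPM in WT and 87 to 598 CPM in the compound mutants. S100a8, a calcium-binding protein of neutrophils, had 0.159, 0.0837 and 0 CPM in WT and 17.1, 147 and 32.2 CPM in the compound mutants (9.85 ± 1.68), and replicate 2 was the highest mutant library for 11 of the 13 members. Mast cell markers gave 9 rises and no fall among 12 (median 3.01; summed level 20.8 to 68.9 CPM in WT, 102 to 167 CPM in the compound mutants). The mast cell tryptase Tpsb2 rose from 0.265, 0.251 and 0.312 CPM to 10.2, 12.1 and 12.6 CPM (5.38 ± 0.52, adjusted p = 1.99e-07). Macrophage markers gave 11 rises and 1 fall among 18 (median 0.92; summed level 384 to 529 CPM and 655 to 777 CPM), and 7 rises without WT replicate 2. Arg1, an arginase, had 23, 19.9 and 29.3 CPM against at most 0.238 in WT (6.96 ± 0.93, adjusted p = 6.87e-06), and Mertk, a receptor for the uptake of dying cells, fell by 3.47 (SE 0.48). Of 15 markers of T cells and cytotoxic lymphocytes 2 rose and 1 fell (median -0.21, and 0.12 with total count scaling), and of 15 of B and plasma cells 1 rose (median 1.18). Without WT replicate 2 no T cell marker was higher, and without compound mutant replicate 2 there were 4 higher B and plasma cell markers. What part the amount of each cell type has in the changes above was not tested.

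Fibroblast and matrix genes rose in 19 of 20 cases, with none lower (median 1.89; summed level 844 to 2246 CPM in WT and 5471 to 7989 CPM in the compound mutants). The WT libraries stood apart for these genes, replicate 3 being the highest for 17 of 20 and replicate 2 the lowest for 18. They kept that order for smooth muscle markers (replicate 3 highest for 13 of 14, replicate 2 lowest for all 14) and for enteric neuron and glia markers (15 and 16 of 16). Col1a1, the main fibrillar collagen, had 92.1, 51.9 and 128 CPM in WT and 352, 289 and 410 CPM in the compound mutants (1.95 ± 0.36, adjusted p = 0.000193). Fn1, fibronectin, had 89.1, 49.5 and 195 CPM against 3053, 1274 and 2382 CPM (4.33 ± 0.74, adjusted p = 8.65e-05). The matrix proteases Mmp3 and Mmp10 rose by 7.52 ± 0.99 and 7.59 ± 0.89 and their inhibitor Timp1 by 4.10 ± 0.35. Smooth muscle markers did not share this direction, with 2 of 14 lower (1 without compound mutant replicate 1 or 2 or WT replicate 1 or 3), none higher and a median of -0.52 (summed level 1666 to 5062 CPM in WT and 1996 to 2666 CPM in the compound mutants). Enteric neuron and glia markers gave 2 rises and 1 fall among 16, and endothelial markers 3 rises among 12 (5 without compound mutant replicate 2 or WT replicate 3). Those 25% of endothelial markers compare with 26.6% of all genes that rose. All 6 red blood cell genes rose (median 4.19; summed level 9.98 to 17.6 CPM in WT and 37.2 to 688 CPM in the compound mutants). The beta globin Hbb-bs had 6.09, 6.04 and 10.8 CPM in WT and 149, 490 and 26 CPM in the compound mutants (4.85 ± 0.78), replicate 2 being the highest and replicate 3 the lowest for all 6 genes. Without replicate 2, the change of Hba-a1 went from 3.59 to 2.38 and that of Hba-a2 from 3.42 to 2.23. The globin copies can share reads.

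Among 23 interferon response genes 13 fell and none rose (median -2.06), and 8 fell without compound mutant replicate 2 or 3 or WT replicate 1 or 2. Irf7, the interferon regulatory factor that is itself induced by interferon, had 1411, 1290 and 469 CPM in WT and 71.4, 17.7 and 63.5 CPM in the compound mutants (-4.38 ± 1.00, adjusted p = 0.0012). Oas1a, an antiviral enzyme, fell by 2.69 (SE 0.64). The summed level was 1797 to 5428 CPM in WT and 303 to 1065 CPM in the compound mutants. WT replicate 3 was the lowest WT library for 21 of the 23 members and compound mutant replicate 2 the lowest mutant library for 22. Of 12 genes of MHC class II presentation 3 fell (median -0.76), 25% against 26.1% of all genes. H2-Eb1, the beta chain of a class II molecule, had 56.8, 47.9 and 112 CPM in WT and 1.98, 0.647 and 2.23 CPM in the compound mutants (-5.48 ± 0.81, adjusted p = 1.88e-05). It had 35.8 to 59.5 CPM in Cdx2-/- set 1 and 0.978 to 3.33 CPM in set 2.

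Immediate early and heat shock genes respond within minutes to stress, the handling of tissue included. Of 14 tested 5 fell and 1 rose (median -0.97), 42.9% called either way, below the 52.8% of all genes. Without compound mutant replicate 2 or WT replicate 3, 8 fell. Hspa1a, a heat shock protein, had 190, 82.5 and 8.83 CPM in WT and 1.19, 2.94 and 2.02 CPM in the compound mutants (-5.52 ± 1.13, adjusted p = 0.00048), and reads of its near-identical copy Hspa1b (-4.93 ± 0.97) can be shared with it. WT replicate 1 was the highest WT library for all 14 members and compound mutant replicate 2 the highest mutant library for 12. The rise of Egr1 (1.76) rests on that mutant library, without which it was -0.57 (adjusted p = 0.293). Whether tissue handling has a part in other changes was not tested.

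The compound mutant was last set beside the Cdx2-/- cecum, which has the same Cre and drugs and no Apc mutation. Against the average of both sets, 806 genes (3.93%) were higher and 923 (4.5%) lower, 8.43% together. Against set 1, 1983 genes (9.67%) were higher and 2482 (12.1%) lower, 21.8% together. Set 1 replicates 2 and 3 were the closest pair within any group (chi-square 7.03 per degree of freedom). The test against set 1 alone was not rerun with them added up, so its p-values may count near repeats as separate libraries. Against set 2, none was higher and 2 (0.00976%), Ankle1 and BC002163, were lower (edgeR), although 1944 genes (9.48%) had an unadjusted p under 0.05. The sets differ in sex-linked genes: Xist had 816, 666 and 715 CPM in set 1 and at most 0.979 CPM in set 2 and 0.555 CPM in the compound mutants, while the Y-linked Ddx3y had 91.1, 124 and 81.7 CPM in the compound mutants and at most 0.25 CPM in set 1. Sex and the other differences between the groups cannot be told apart in the comparison with set 1. None of the 5 sex-linked genes read was called between the compound mutant and WT cecum in the main fit. That turned on the setting: 2 were higher and 1 lower with DESeq2, and 2 were higher in a fit of the 6 libraries alone. With total count scaling 3 were higher, and without WT replicate 3 there was 1 fall.

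No member of the 43 lists was called against set 2. For Lyz1 the Cdx2-/- libraries had 20, 39.2 and 42.1 CPM in set 1 and 61.3, 14 and 477 CPM in set 2, all below the compound mutants. The change was 5.68 against set 1 (adjusted p = 0.00361) and 3.23 against set 2 (adjusted p = 0.316). Of the 15 Paneth markers Lyz1 was the 1 called higher against set 1, the defensins Defa23, Defa29 and Defa30 were lower, and the list's median was -2.37 against set 1 and -2.49 against set 2. Pi15, a secreted peptidase inhibitor, had 38.2, 52.4 and 19.5 CPM in the compound mutants, at most 6.82 CPM in set 1 and at most 13.6 CPM in set 2 (2.69, adjusted p = 0.0115; 1.94, adjusted p = 0.345). Of the Wnt genes 5 were higher and 1 lower against set 1, of the replication and mitosis genes 16 were lower and none higher, and of the fibroblast and matrix genes 11 were higher and none lower. Over all genes, 9.67% were higher and 12.1% lower against set 1. The medians of the Wnt, replication and matrix lists, in that order, were 0.57, -0.74 and 0.94 against set 1. Against set 2 they were 0.45, -0.63 and 0.21. All 6 red blood cell genes were higher against set 1 (median 4.43), and their median against set 2 was 4.25 with none called. Their summed level was 10.6 to 29.8 CPM in set 1 and 15 to 21.1 CPM in set 2, and the part of blood content in the other differences was not tested. Apc itself was 0.74 higher against set 1 (adjusted p = 0.00674) and 0.35 against set 2 (adjusted p = 0.56).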

How the data were processed

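The labels' protocols name Trizol for the RNA and a TruSeq mRNA kit for the libraries, and the authors deposited raw read counts per gene in 1 file per library. CASAVA, TopHat2 2.0.11, HTSeq 0.5.3p3 and the build GRCm38 are named in the submitters' processing notes; how reads were counted, with which strand setting and on which annotation release is not given in the sources used here, so overlapping and antisense genes may share reads. Each file lists 39179 genes and 5 closing entries without a gene, which were left out (reads not unique 18.5 to 28.5%, no feature 8.24 to 10.3%, ambiguous 2 to 2.53% in the 6 libraries); 37607 genes were given symbols, covering 99.78% of gene reads.

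Counts of all 24 libraries in 8 groups were fitted with edgeR 4.0.16 in R 4.3.3 (filterByExpr, TMM, glmQLFit, glmQLFTest, Benjamini-Hochberg over 20502 genes, threshold 0.05). The fit on all groups shares one estimate of spread. SE is the log2 change over the square root of F. Alternatives were DESeq2 1.42.0, RLE and total count scaling, other filters, a fit of the compared groups alone, a replicate block and leaving out each library. The 43 lists hold 669 genes, of which 643 were tested and 2 were not matched.

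The libraries compared and the gene lists were chosen with earlier results of these data known. Genes were named by rule: Cdx2, Cdx1 and Apc; the 12 largest called changes each way with at least 10 CPM and no overlap; the 8 largest CPM differences each way; up to 4 called members per list with the smallest adjusted p; and the 8 largest called changes each way against Cdx2-/- cecum. Predicted genes, pseudogenes, receptor segments, and mitochondrial, Y-linked and Xist transcripts were left out of the ranking by change. Other called genes named were chosen after their values were seen.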

Additional observations from a re-analysis of the deposited data

Results flagged for a closer look

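Ankle1, an endonuclease gene, differed from both sets of Cdx2-/- cecum by the test of the difference. BC002163, the other gene called lower against set 2, was left out of the ranking for its accession name and is not described here. Ankle1 had 4.49, 2.13 and 3.45 CPM in the compound mutants, against 14.1, 14.5 and 12.8 CPM in set 1. In set 2 the levels were 9.7, 7.99 and 13.1 CPM. Genes named from the comparison with both sets were chosen for having no overlap with either. The log2 change was -1.82 against the average of both sets (adjusted p = 0.000221, edgeR), -2.04 against set 1 (adjusted p = 4.5e-05) and -1.61 against set 2 (adjusted p = 0.0208). Against WT cecum, with 6.09, 4.69 and 5.85 CPM, it was -0.72 (adjusted p = 0.0155), a call lost without compound mutant replicate 2, without WT replicate 1, in a fit of the 6 libraries alone and with total count scaling (-0.28).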

How the results depend on the processing

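The counts against WT cecum stayed within 1.5 times of 5458 rises and 5361 falls under the alternatives run, apart from total count scaling (8308 and 3118); leaving out 1 library gave 4362 to 5972 rises and 4544 to 5492 falls. Of 268 named genes against WT, 217 kept their direction and call under all alternatives. The changes that turned were Pgc (-4.09 to 0.32 over the left-out libraries, turning without WT replicate 2), Egr1 (-0.57 to 2.25, turning without compound mutant replicate 2) and Cdh1 (0.44 with total count scaling). Of 86 list counts, 50 stayed within 1.5 times under all alternatives.

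Against the average of both Cdx2-/- sets 806 genes (3.93%) were higher and 923 (4.5%) lower. Leaving out 1 library gave 133 to 824 and 147 to 1038, the lowest without compound mutant replicate 2. Rises were 1222 with DESeq2, 505 with no filter, 483 in a fit of the groups compared (falls 570), 450 with set 1 replicates 2 and 3, which lay closest (chi-square 7.03 per degree of freedom), added up (falls 560), 1983 against set 1 (falls 2482) and 0 against set 2 (falls 2). Of 16 genes named from this comparison 1 kept its call throughout. The cause was not tested.

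The shared replicate numbers did not pair the libraries: same-numbered WT and compound mutant libraries had correlations of deviations of -0.062, 0.034 and 0.169. With the replicate block in 21 libraries, 5441 genes rose and 5304 fell against WT, and 5437 and 5328 without it. Against Cdx2-/- set 1, the only set with these numbers, the block gave 1911 and 2415, and 1938 and 2464 without it; this fit without the block was chosen after seeing the data.

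Genes near 0 CPM in one group rest on few reads there, so their fitted changes depend on the prior count.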

Other observations

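The 12 deepest falls, among called genes with a group mean of at least 10 CPM and no overlap, included several genes that are no transporters. Gsdmc4, of the pore-forming gasdermin C family, had 2848, 1986 and 1527 CPM in WT cecum and 34.8, 7.08 and 16 CPM in the compound mutants (-6.78 ± 1.64, adjusted p = 0.00198, edgeR), and its relative Gsdmc fell by 6.21 (SE 1.16); reads of this clustered family may be shared. Gal3st2c, a sulfotransferase for sugar chains, fell from 475, 602 and 276 CPM to 4.42, 0.439 and 6.56 CPM (-6.88 ± 1.01, adjusted p = 1.72e-05). Btnl6, a butyrophilin-like gene of the intestinal epithelium, had 33.3, 41.2 and 17.5 CPM against at most 0.191 CPM (-7.97 ± 1.25, adjusted p = 3.52e-05). Tex19.1, best known from germ cells, had 41, 52.5 and 4.8 CPM against at most 0.0817 CPM (-9.76, adjusted p = 1.35e-05). The lipid droplet enzyme Hsd17b13 fell by 6.28 (SE 0.83), the cytochrome P450 gene Cyp4f14 by 6.61 (SE 1.36) and the metalloprotease Adamts18 by 7.61 (SE 0.89). Since a lack of overlap was a condition of the choice, it is no separate result for these genes.

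Other genes with large differences in CPM kept sizeable levels. The adhesion molecule Ceacam1 had 9193, 10671 and 6461 CPM in WT and 1894, 3150 and 1357 CPM in the compound mutants (-2.04 ± 0.56, adjusted p = 0.00472). Emp1, a membrane protein, fell by 2.99 (SE 0.34) and the galectin Lgals4 by 1.75 (SE 0.34). S100a6, a calcium-binding protein, rose from 586, 361 and 285 CPM to 1567, 2583 and 1267 CPM (2.14 ± 0.39, adjusted p = 0.000166). Cftr, the apical chloride channel, fell from 103, 90.6 and 163 CPM to 33.3, 16.1 and 43.5 CPM (-1.94 ± 0.47, adjusted p = 0.00199). The receptor Ret, of enteric neuron precursors, rose by 2.43 ± 0.53 and the secretory factor Xbp1 by 1.48 ± 0.18.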
